A study of Homo sapiens with 12 samples.

Results

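In HepG2/C3A cells, 4806 chromatin regions carried a pan-succinyllysine (Ksu) peak in both control libraries and in neither library of cells given sodium succinate, when the same number of peaks was taken from every library. They are called control-only regions here. To find them, the 76702 peaks with the highest total signal were taken from each of the 4 Ksu lists, 76702 being the length of the shortest list on chromosomes 1 to 22, X and Y. Peaks that overlapped by 1 bp or more were merged, which gave 266381 union regions, and the control-only regions are 1.80% of these. The peak lists themselves chose the regions, so their number, their widths and their Ksu signal are descriptions and were not tested.

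The series used CUT&Tag, in which an antibody directs a transposase to chromatin and the released fragments are sequenced. Per the labels, all samples come from HepG2/C3A cells. This line was derived from a human liver tumour. The treated cells received 10 mM sodium succinate in the medium for 48 hours, and the control cells were kept for 48 hours without it, with the series text naming a vehicle. The regions rest on 2 control and 2 succinate Ksu libraries, and 2 control and 2 succinate libraries of histone H3 trimethylated at lysine 27 (H3K27me3) served as a readout that did not choose them. The IgG libraries were not used here, and no antibody background was subtracted from the deposited lists. Whether a control track had entered the peak calls is not given. The labels call the replicates biological without saying whether they were separate cultures, so the tests measure only the spread between these libraries.

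Lysine succinylation is the transfer of a succinyl group, usually from succinyl-CoA, to the side chain of a lysine, which turns its positive charge negative. Succinyl-CoA and succinate are neighbouring intermediates of the tricarboxylic acid (TCA) cycle, and the sirtuins SIRT5 and SIRT7 can remove the mark. The pan-succinyllysine antibody does not tell which protein or which lysine was modified. H3K27me3 is laid down by Polycomb repressive complex 2 (PRC2) and removed by Jumonji-type demethylases, enzymes that succinate can inhibit.

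A small number of control-only regions reached gene starts, and the sequences there are the ones that could be read. Of the 4806 regions, 53 (1.1%) overlapped a promoter window, defined as 250 bases before to 50 bases after a gene start in RefSeq (GRCh38.p14). The share was 0.996% over all union regions and 1.13% to 1.56% in the other 5 patterns of 2 libraries, so it was near the background. The sequences printed are the 250 bases before the start of the first 4 protein-coding genes, ordered by the lower of the percentiles that a region reached in the 2 control libraries, and of CYP3A4, which was added after its values were seen because it is a liver gene. They are written 5′ to 3′ in the direction of the gene, and capitals mark the CpG dinucleotides. LAMP5 encodes a lysosome-associated membrane protein of neurons (chr20:9514340-9514589, plus strand). TAF11L12 is a member of the TAF11-like family (chr5:17610142-17610391, plus strand). KLF7 is a Krüppel-like transcription factor (chr2:207166857-207167106, minus strand). SPINK13 is a Kazal-type protease inhibitor (chr5:148268544-148268793, plus strand). CYP3A4 is a drug-metabolising cytochrome P450 of the liver (chr7:99784185-99784434, minus strand).
LAMP5: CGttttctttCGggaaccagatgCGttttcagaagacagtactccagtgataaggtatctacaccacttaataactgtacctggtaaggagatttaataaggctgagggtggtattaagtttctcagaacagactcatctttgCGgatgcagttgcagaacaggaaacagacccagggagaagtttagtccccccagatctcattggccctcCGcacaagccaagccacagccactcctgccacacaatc
TAF11L12: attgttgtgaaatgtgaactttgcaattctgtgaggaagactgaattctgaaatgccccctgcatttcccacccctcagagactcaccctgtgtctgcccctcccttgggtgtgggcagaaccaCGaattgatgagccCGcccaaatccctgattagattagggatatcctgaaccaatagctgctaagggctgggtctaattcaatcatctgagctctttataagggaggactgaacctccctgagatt
KLF7: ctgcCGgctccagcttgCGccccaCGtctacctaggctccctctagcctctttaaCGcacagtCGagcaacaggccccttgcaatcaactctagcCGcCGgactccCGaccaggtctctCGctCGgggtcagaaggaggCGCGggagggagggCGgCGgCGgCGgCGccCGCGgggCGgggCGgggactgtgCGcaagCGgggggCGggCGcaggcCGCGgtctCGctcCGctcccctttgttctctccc
SPINK13: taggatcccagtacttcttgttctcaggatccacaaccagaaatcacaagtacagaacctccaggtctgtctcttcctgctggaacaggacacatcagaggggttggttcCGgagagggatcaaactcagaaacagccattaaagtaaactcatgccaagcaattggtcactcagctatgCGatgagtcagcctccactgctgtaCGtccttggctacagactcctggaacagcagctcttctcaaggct
CYP3A4: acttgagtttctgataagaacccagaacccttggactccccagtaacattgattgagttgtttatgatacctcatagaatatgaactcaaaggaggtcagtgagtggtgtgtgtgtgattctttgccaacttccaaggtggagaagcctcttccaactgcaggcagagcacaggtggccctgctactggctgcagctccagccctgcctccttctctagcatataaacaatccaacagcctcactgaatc
All 250 bases lay inside the control-only region at LAMP5, KLF7, SPINK13 and CYP3A4, and 149 of them did at TAF11L12. The KLF7 stretch held 29 CpG dinucleotides with 72% G or C, whereas LAMP5 held 5, SPINK13 held 3, TAF11L12 held 2 and CYP3A4 held 0. The motif TATAAA was present in the CYP3A4 stretch.

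The 53 regions overlapped 58 promoter windows of 55 genes, of which 21 encode proteins. The median window held 47.7% G or C and 4 CpG dinucleotides. Over all 35116 promoter windows the medians were 58.7% and 14, and over the 3023 windows overlapped by any union region they were 50% and 4. The windows at control-only regions were therefore poor in CpG, and so were those at Ksu regions at large. TATAAA, searched on the strand of the gene and not on the other, was found in 5 of the 58 windows (8.62%), in 9.2% of the windows at union regions and in 7.33% of all windows. Of the regions that reached a promoter window, 43 were under no H3K27me3 peak in any library and 3 were under H3K27me3 peaks in all 4, at KLF7, at TOGARAM2 and at ADCY5, which encodes an adenylyl cyclase. These 3 were named after their values were seen. Over all control-only regions, 92.5% were under no H3K27me3 peak and 2.35% under peaks of all 4 libraries. Over all union regions the shares were 87.7% and 4.8%. Shares for the union regions at promoter windows were not computed, so the counts at gene starts are a description. In the order of the rule the 10 highest regions at gene starts lay at MIR205HG, LOC105377688, LINC01824, LINC02360, LOC105369788, LOC105377918, LAMP5 with LAMP5-AS1, LOC105373634, TAF11L12 and TINAG-AS1, and all of these genes but LAMP5 and TAF11L12 are non-coding.

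Control-only regions also overlapped microRNA hairpins, and the mature sequences are shown because 1 region held 3 hairpins. The RefSeq table held 1562 hairpins on the chromosomes, of which 125 were overlapped by a union region and 5 by a control-only region. Counted as regions, 119 union regions overlapped a hairpin, of which 3 were control-only and 5 only in succinate. Control-only regions are 1.80% of all union regions, and a count of 3 is too small to set them apart. Capitals mark the seed, bases 2 to 8.
hsa-miR-2355-3p: aUUGUCCUugcuguuuggagau
hsa-miR-2355-5p: aUCCCCAGauacaauggacaa
hsa-miR-758-5p: gAUGGUUGaccagagagcacac
hsa-miR-758-3p: uUUGUGACcugguccacuaacc
hsa-miR-329-5p: gAGGUUUUcuggguuucuguuuc
hsa-miR-329-3p: aACACACCugguuaaccucuuu
hsa-miR-4319: uCCCUGAGcaaagccac
MIR758, MIR329-1 and MIR329-2, microRNA genes of the imprinted cluster on chromosome 14, lay in the control-only region from 101025982 to 101027502, and the last 2 give the same mature sequences. All 1521 bp of that region were under H3K27me3 peaks in each of the 4 H3K27me3 libraries. MIR2355 lay in a region on chromosome 2 (207109651 to 207110484) and MIR4319 in a region on chromosome 18 (44969625 to 44970812), and neither was under an H3K27me3 peak. The microRNAs were chosen after the regions were known.

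The Ksu lists differed widely in length, which bears on every value. They held 76702 and 382019 peaks in control replicates 1 and 2 and 294568 and 629903 in succinate replicates 1 and 2. The whole list of control replicate 1 was therefore used, but 20.1% of that of control replicate 2, 26% of that of succinate replicate 1 and 12.2% of that of succinate replicate 2. Read depth is unknown from peak lists. The highest signal of every peak was a whole multiple of a step particular to its library, within 0.02 of a whole number, so signal is given in these steps or as a rank. The weakest peak taken had a total signal of 8977 steps in control replicate 1, 3515 in control replicate 2, 7448 in succinate replicate 1 and 7023 in succinate replicate 2. In the 3 shortened lists the first peak left out had the same total in whole steps. These lists ended at totals of 76 steps in control replicate 2, 4247 in succinate replicate 1 and 49 in succinate replicate 2.

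The number of control-only regions was not large beside the other ways in which 2 of the 4 libraries can share a region. There were 5169 regions only in the succinate libraries (1.94% of all union regions), 6545 only in the libraries of replicate 1 (2.46%) and 5643 only in those of replicate 2 (2.12%). Control replicate 1 shared 4457 with succinate replicate 2 (1.67%), and control replicate 2 shared 3274 with succinate replicate 1 (1.23%). The count for the controls lies inside this range, and 375 regions were present in all 4 libraries (0.141%). In all, 7139 union regions were present in both controls, and 2333 of them also had a peak of a succinate library among those taken. With control replicate 1 left out, where a region needs 1 control library and not 2 and the lists are cut at 294568 peaks, the count was 199266, and without control replicate 2 it was 62264.

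**Figure D1:**
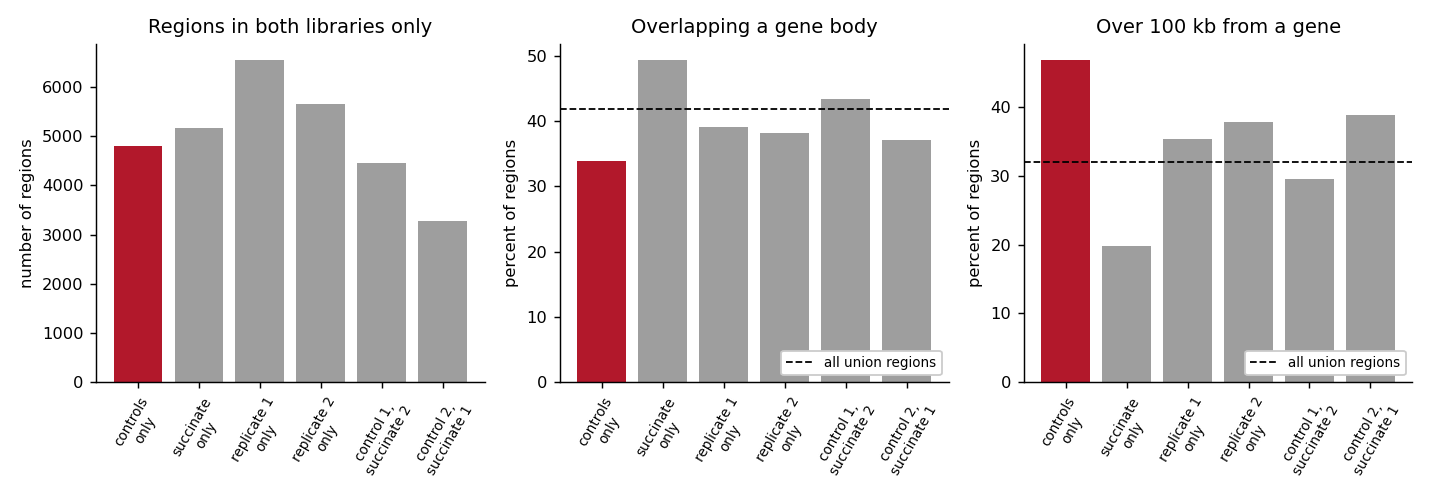
Bars give, for the 6 ways in which exactly 2 of the 4 Ksu libraries share a region, the number of regions (left), the percent that overlap a protein-coding gene body (middle) and the percent more than 100 kb from a protein-coding gene (right); dashed lines give the value over all union regions. Control-only regions (red) are intermediate in number at 4806, have the lowest gene share at 33.9% and the highest share far from genes at 46.8%.

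Control-only regions were of ordinary width for regions shared by 2 libraries. The median was 1373 bp, with quartiles of 1083 and 1750 bp and a range of 426 to 5861 bp, beside medians of 1213 to 1480 bp for the other 5 patterns and 859 bp for all union regions. In 4650 of the 4806 (96.8%) each control library contributed exactly 1 peak. The peaks of the controls shared a median of 446 bp, or 33.7% of the region, and their places of highest signal lay a median of 409 bp apart. Within the peaks taken, the control-only regions spread over the whole range of total signal. Their median percentile (100 being the strongest peak) was 55.8 in control replicate 1 and 57.1 in control replicate 2, and 1558 of them (32.4%) lay above the 50th percentile in both. The median height was 33 steps in control replicate 1 and 17 in control replicate 2, the same as over all peaks taken from those libraries.

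Control-only regions lay away from genes. Of the 4806, 1628 (33.9%) overlapped a protein-coding gene body, against 41.8% of all union regions and 49.3% of the regions only in succinate. The other 4 patterns had 37% to 43.3%, so the control-only share was the lowest of the 6. It was also below the shares in the lists the regions were drawn from, where 39.2% and 35.7% of the peaks taken from control replicates 1 and 2 overlapped a gene body. In the peaks taken from succinate replicates 1 and 2 the shares were 44.9% and 46.2%. Gene bodies take up 41.3% of the chromosomes. A lower gene share in the control lists than in the succinate lists was already known from these data, so it gives no independent support.

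The distance to genes was larger in control-only regions than in the other patterns of 2 libraries. The 3178 regions outside gene bodies lay a median of 223 kb from the nearest protein-coding gene, beside 63.6 kb for regions only in succinate and 124 kb for all union regions. More than 100 kb from any such gene lay 2247 control-only regions (46.8%), against 19.8% of those only in succinate, 29.5% to 38.8% in the other 4 patterns and 32% of all union regions. No protein-coding gene was present within 500 kb of 702 control-only regions (14.6%), and the mean number of genes in that interval was 3.4. Regions only in succinate had 3.31% without a gene and a mean of 7.91 genes. Regions found in control replicate 2 alone came close to the control-only ones, with a median distance of 191 kb, 42.3% more than 100 kb away and 14.2% without a gene within 500 kb. The lower gene share held chromosome by chromosome. On each of the 19 chromosomes with at least 20 regions of both kinds, the gene-body share of control-only regions (20.2% to 46.5%) was below that of regions only in succinate (33.3% to 61.1%), and below that of all union regions. Regions are not replicates, so these shares carry no test.

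H3K27me3 gave a readout that had no part in choosing the regions, and control-only regions were poor in it. In control cells, H3K27me3 peaks covered 6.88% of their bases in replicate 1 and 3.45% in replicate 2. In succinate-treated cells they covered 4.48% and 3.22%. Over all union regions the control libraries gave 11.8% and 6.72%, and those from treated cells gave 9.5% and 7.47%. The cover of control-only regions was lower than that of the union regions in all 4 libraries, with a mean log2 ratio of -1.01 ± 0.19 (SD, n = 4 libraries), or 0.496 times. An exact two-sided sign-flip permutation test over the 4 libraries gave p = 0.125, the smallest it can give, and 0.312 after Benjamini-Hochberg adjustment over 5 tests. The difference thus exceeded the spread between libraries but could not pass 0.05 in this design.

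The contrast with the regions only in succinate was larger. H3K27me3 peaks covered 21.6% and 12.4% of the bases of those regions in control and 17.9% and 14.4% in succinate. The log2 ratio of control-only to succinate-only regions was -1.65 and -1.84 in the control libraries and -2.00 and -2.16 in the succinate libraries, a mean of -1.91 ± 0.22 (SD, n = 4), or 0.266 times. It was -0.96 when Ksu succinate replicate 1 was left out of the choice of regions. The exact sign-flip permutation test gave p = 0.125 (adjusted 0.312), again the smallest possible. The other 4 patterns had 10.1% to 18.8% of their bases under the peaks of control replicate 1, the library with the widest H3K27me3 cover, so the control-only regions had the lowest cover of the 6. Regions found in control replicate 2 alone had less in every library, with 4.95% and 2.63% in control and 3.78% and 2.87% with succinate. In the 2 H3K27me3 control libraries, regions of control replicate 1 alone had 9.12% and 5.13%. Those of succinate replicate 1 alone had 16.7% and 9.99%, and those of succinate replicate 2 alone 12.5% and 7.1%. A difference in the same direction was thus already present between regions of single Ksu libraries. Over the chromosomes as a whole the H3K27me3 peaks of the control libraries covered 6.51% and 3.83%, and those of the treated cells 5.67% and 4.57%. Cover of the control-only regions was thus near the genome-wide share in control and below it in both succinate libraries.

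**Figure D2:**
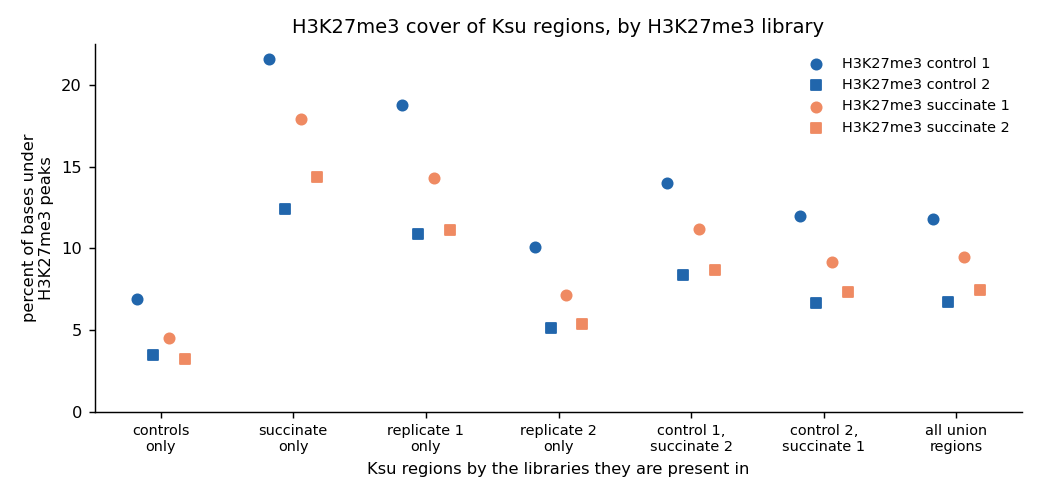
Each point gives the percent of the bases of a group of Ksu regions that lay under the H3K27me3 peaks of 1 library (blue, control; orange, succinate; circles, replicate 1; squares, replicate 2), for the 6 ways in which exactly 2 Ksu libraries share a region and for all union regions. For control-only regions the points lie between 3.22% and 6.88%, and in each library they are below those of the other groups shown.

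Between treatments, H3K27me3 cover of the control-only regions did not differ beyond the spread of the replicates when the full H3K27me3 lists were used. The log2 difference, succinate minus control, was -0.36 against a pooled SD of 0.55 (n = 2 per treatment, exact two-sided permutation p = 0.667, smallest possible 0.333). The control values of 6.88% and 3.45% overlapped the succinate values of 4.48% and 3.22%, and without H3K27me3 control replicate 1 the difference changed direction to 0.14. The H3K27me3 lists held 19133 and 5813 peaks in control and 9985 and 5531 with succinate. With equal numbers of H3K27me3 peaks the difference was smaller, -0.13 (exact permutation p = 0.333, the smallest possible). Relative to all union regions, however, the treatments did not overlap. The log2 ratio was -0.78 and -0.96 in control and -1.09 and -1.21 with succinate. The treatments thus differed by -0.28, with a pooled SD of 0.11 (p = 0.333 by exact permutation, which cannot go lower here, and 0.417 after adjustment). Relative to the regions only in succinate it was -0.33, with a pooled SD of 0.13 (p = 0.333 by exact permutation, 0.417 after adjustment). These last 2 contrasts were added after the data were seen and were not computed with equal numbers of H3K27me3 peaks.

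Most control-only regions lay outside the called H3K27me3 peaks, which does not show that the mark was absent. No H3K27me3 peak of any library touched 4445 of the 4806 (92.5%), beside 87.7% of all union regions and 76.9% of those only in succinate. Peaks of all 4 libraries touched 113 (2.35%), beside 4.8% of the union regions and 9.77% of the succinate-only ones. In regions of control replicate 2 alone, 94% were under no peak and 1.97% under peaks of all 4 libraries. Of the 113, 95 lay with their whole width under H3K27me3 in every library. The 113 were spread over 17 chromosomes, with 32 on chromosome 2 and 17 on chromosome 20, and 56 of them (49.6%) overlapped a gene body. Of all control-only regions, 19.4% lay on chromosome 2, 4.31% on chromosome 20 and 33.9% in a gene body. Union regions under H3K27me3 peaks of all 4 libraries were not placed in this way, so these values are a description.

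The chromosomes contributed unequally. Chromosome 2 held the most control-only regions, 934, which is 2.5% of its union regions. The share was highest on chromosome 5, with 474 regions (2.68%), followed by chromosome 2 and chromosome 6 (484 regions, 2.23%). It was lowest on chromosome 22, with 5 regions (0.278%), on chromosome 19 (10 regions, 0.422%) and on chromosome Y (2 regions, 0.426%). On chromosome 17 it was 0.54% with 34 regions. Regions only in succinate were distributed otherwise, with 0.882% of the union regions of chromosome 5, 3.02% of those of chromosome 17 and 3.63% of those of chromosome 20. Control-only regions outnumbered the succinate-only ones on 9 of the 24 chromosomes, were fewer on 14 and equalled them on chromosome 7.

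**Figure D3:**
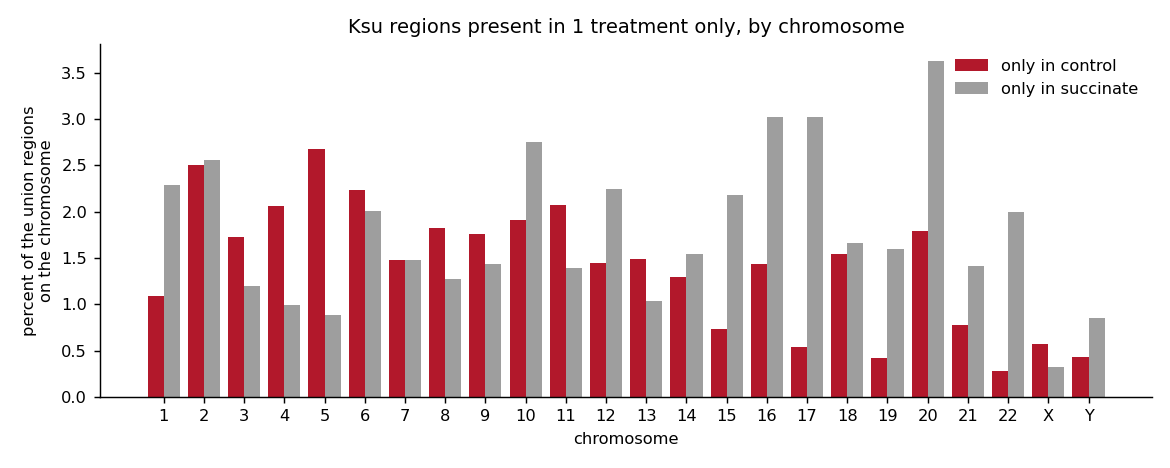
Bars give the percent of the union regions of each chromosome that were only in control (red) or only in succinate (grey). The red bars are highest on chromosome 5 (2.68%) and lowest on chromosome 22 (0.278%), and the grey bars are highest on chromosome 20 (3.63%).

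Within chromosomes the control-only regions were gathered in part. Of 3070 windows of 1 Mb, 1618 (52.7%) held at least 1 of them and 568 held exactly 1. Windows with 8 or more numbered 97 and held 956 regions (19.9%), and 37 of these windows lay on chromosome 2, 19 on chromosome 5, 14 on chromosome 6 and 12 on chromosome 10. Windows with 8 or more succinate-only regions numbered 110, and 1 window met both counts. Chromosome 2 held 14% of all union regions and 19.4% of the control-only ones. The count in the 97 windows was not set against the union regions of the same windows, so it does not separate crowding from the density of Ksu regions. In the 97 windows H3K27me3 peaks covered 3.79% and 1.98% of the bases in control and 2.32% and 1.77% in succinate, in each library less than over the chromosomes as a whole.

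The window from 123 to 124 Mb on chromosome 2 held 16 control-only regions among 181 union regions, and 5 succinate-only regions. It overlapped no protein-coding gene and no H3K27me3 peak in any library. The window from 153 to 154 Mb on chromosome 5 also held 16, among 198 union regions, and 0 succinate-only regions. Of the 16, 8 lay in GRIA1, which encodes a subunit of AMPA-type glutamate receptors. These 8 regions were 1101 to 3448 bp wide, and the widest, from 153752399 to 153755846, stood at percentile 98.7 in control replicate 1 and 94.3 in control replicate 2. The next windows held 14 each. The window on chromosome 2 from 143 to 144 Mb overlapped KYNU, ARHGAP15 and QTMAN, that on chromosome 6 from 165 to 166 Mb overlapped C6orf118 and PDE10A, and that on chromosome 10 from 19 to 20 Mb overlapped MALRD1 and PLXDC2.

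The genes that held control-only regions were longer than most. Of 20033 protein-coding genes, 840 (4.19%) held at least 1, and 556 of these held exactly 1. The median length of the 840 genes was 273 kb, beside 130 kb for the 1776 genes with a succinate-only region, 45.9 kb for genes with any union region and 24.1 kb for all protein-coding genes, and 357 genes held regions of both kinds. Long genes offer more room, so counts were set against gene length and against the union regions in the same genes. All protein-coding genes held 1.29 control-only regions per Mb of gene body, or 1.46% of their union regions. The 69 genes of 1 Mb or more held 342, which is 3.57 per Mb and 2.86% of their union regions, and 59 of the 69 genes held at least 1. The same genes held 155 succinate-only regions, 1.3% of their union regions, against 2.29% over all protein-coding genes. Genes of this length held 7.12% of all control-only regions, beside 7.47% of the regions in all 4 libraries, 5.88% of those only in replicate 2 and 5.68% of those in control replicate 2 alone.

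MACROD2, which encodes an ADP-ribose hydrolase and spans 2.06 Mb on chromosome 20, held the most control-only regions, 24, beside 3 succinate-only regions. SGCD (delta-sarcoglycan, chromosome 5) and CTNNA2 (the neuronal alpha-catenin, chromosome 2) held 14 each, and the succinate-only counts were 0 and 4. ARHGAP15, a GTPase-activating protein for Rac, held 13 in 0.639 Mb, or 20.3 per Mb, the highest density among the 10 genes with the most regions. THSD7B, a thrombospondin-repeat protein, held 13, MALRD1, a protein with LDL-receptor-type domains, 12, and TENM2, a teneurin of synaptic contacts, 12. FAT3, an atypical cadherin, PARD3B, a cell polarity protein, and NRG3, a ligand of the receptor ERBB4, held 11 each. CNTNAP2 also held 11 and was placed after these by its lower density, 4.77 per Mb. Control-only regions made up 4.44% (CTNNA2) to 10.2% (ARHGAP15) of the union regions in these 10 genes, which were picked by their counts. H3K27me3 peaks covered at most 0.73% of the gene body in any library in 9 of the 10. In TENM2 they covered 7.16% and 4.18% in control and 2.54% and 0% in succinate.

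**Figure D4:**
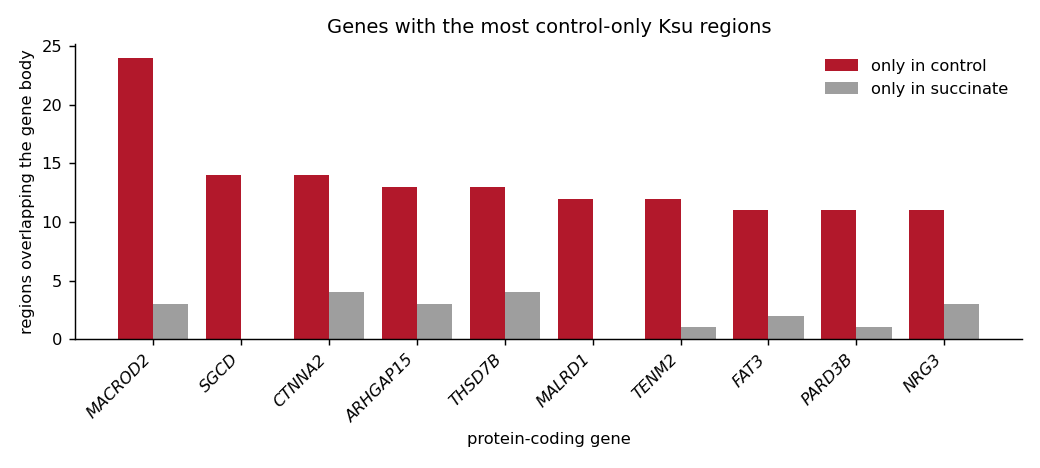
Bars give the number of control-only (red) and succinate-only (grey) Ksu regions that overlap the body of each of the 10 protein-coding genes with the most control-only regions, ties being ordered by density. Counts run from 24 in MACROD2 to 11 in NRG3 for control-only regions and from 0 to 4 for succinate-only regions.

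Lists of neuronal and fragile-site genes, which are long, held control-only regions at 2.22% to 3.12% of their union regions, beside 2.86% in all genes of 1 Mb or more and 1.46% in all protein-coding genes. Of 43 neuronal adhesion genes, such as contactins and teneurins, 28 held a control-only region, 146 regions in all, which is 3.84 per Mb and 3.12% of the union regions in these genes. CNTNAP2, a contactin-associated protein, and DLG2, a postsynaptic scaffold that held 10, belong to this list. The list held 46 succinate-only regions, 0.982% of its union regions. Of 18 ionotropic glutamate receptor genes, 6 held a control-only region, 24 in all (2.98% of their union regions), among them 9 in GRID1 and 8 in GRIA1. GRID1, which encodes a delta-type receptor subunit, was also rich in H3K27me3, whose peaks covered 37.3% and 25.5% of its body in control and 30.6% and 23.4% with succinate. In GRIA1 the cover was at most 0.939%. Of 12 genes at common fragile sites, 8 held 57 (2.77%), and of 13 type II cadherin genes, 4 held 9 (2.22%). The median gene of these lists is long, from 158 kb for the cadherins to 1247 kb for the fragile site genes.

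Lists of genes that act in succinate metabolism, chromatin and liver function held almost none. Of 31 genes of the TCA cycle and succinate transport, 1 held a control-only region, SUCLG2, which encodes a subunit of succinyl-CoA synthetase. That region lay on chromosome 3 from 67421983 to 67423221, at percentile 64.8 in control replicate 1 and 68.8 in control replicate 2. No peak of either full succinate list overlapped it. SUCLG2 also held 1 succinate-only region, among 27 union regions in all. Of 24 Jumonji-type demethylase genes, 1 held a region, KDM2A, on chromosome 11 from 67251978 to 67253005. The 5 genes that add or remove succinyl groups, the 12 PRC2 genes, the 24 genes of hepatocyte plasma proteins and the 10 housekeeping genes held 0. These 6 lists offered few regions to begin with. The union regions numbered 99 in the TCA cycle genes, 120 in the demethylase genes and 57 in the PRC2 genes, and 20, 25 and 5 in the other 3 lists. At the share over all protein-coding genes, 1.46%, each list would hold fewer than 2, so counts of 0 and 1 do not set these genes apart. Succinate-only regions numbered 3 in the TCA cycle genes, 3 in the demethylase genes and 2 in the PRC2 genes. The lists were written with earlier results of these data known.

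The strongest control-only regions were taken as those with the highest lower percentile over the 2 control libraries. The first lay on chromosome 2 from 188559140 to 188563096 in GULP1, an adaptor protein for the uptake of dying cells. It ranked 364 of 76702 in control replicate 1 and 72 in control replicate 2. In the full succinate lists its best peaks ranked 95576 in replicate 1 and 92821 in replicate 2, so peaks were present there, but further down each list. The second lay on chromosome 9 from 23609068 to 23611272, 78.8 kb from ELAVL2, which encodes a neuronal RNA-binding protein. It ranked 375 and 389 in the controls, had no peak in succinate replicate 1 and ranked 433034 in succinate replicate 2.

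The third, on chromosome 18 from 37789478 to 37792566, ranked 769 and 481 in the controls, had no peak in succinate replicate 1 and ranked 169814 in succinate replicate 2. The others of the first 10 lay on chromosome 6 (10013264 to 10014871 and 141220220 to 141221950), chromosome 2 (186811660 to 186814081 and 5092471 to 5095382), chromosome 8 (107564968 to 107567441), chromosome 7 (136653174 to 136656084) and chromosome 9 (26107019 to 26109486). Of the 10, 9 lay outside protein-coding gene bodies, up to 597 kb from the nearest gene, which was the transcription factor gene SOX11. None of the 10 was under an H3K27me3 peak in any library. The region on chromosome 7, 213 kb from the muscarinic receptor gene CHRM2, was the only 1 of the 10 without a peak in either full succinate list. Its control peaks ranked 1941 and 43 and shared 184 bp of its 2911 bp.

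The 5 widest regions differed in how the control libraries made them up. The widest, 5861 bp on chromosome 2 (6492237 to 6498097), held the start of LINC01824. Its best peaks were 1000 and 1591 bp wide, so several peaks were joined in it, and they ranked 7861 and 2567 in the controls. The next, 5757 bp on chromosome 20 (19013134 to 19018890), had a peak of 4918 bp in control replicate 1, rank 53, and of 888 bp in control replicate 2, rank 20544. The region on chromosome 11 from 43153267 to 43158559 ranked 2 in control replicate 1 with a peak of 5293 bp and 8383 in control replicate 2 with 759 bp. The others lay on chromosome 5 (24972416 to 24977464) and in NTM, a neuronal adhesion gene, on chromosome 11 (131378196 to 131382824). In the NTM region the control peaks shared 24 bp.

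The label "only in control" holds for the strongest peaks and not for the full lists. Of the 4806 regions, 3064 (63.8%) were overlapped by a weaker peak in the full list of at least 1 succinate library. The share depended on the libraries and on peak width. It was 17.9% without control replicate 1, 26.1% without succinate replicate 2 and 37.3% when peaks under 500 bp were left out. The first 2 settings leave only 1 succinate list in which a weaker peak can be found, so those shares are lower in part by construction. Such a peak was present in succinate replicate 1 at 1197 regions (24.9%) and in succinate replicate 2, the longest list, at 2550 (53.1%), and in both at 683. The median rank of the best such peak was 176718 in succinate replicate 1 and 270287 in succinate replicate 2, which is 60% and 42.9% of the way down those lists. Within the next 76702 ranks lay the best peaks of 474 regions in replicate 1 (9.86%) and 579 in replicate 2 (12%). Regions present in control replicate 1 alone or in control replicate 2 alone were overlapped by a weaker succinate peak in 43.1% and 43.7% of cases, and their medians of 954 and 664 bp were narrower. That left 1742 control-only regions (36.2%) without a peak in any succinate list. The list of succinate replicate 1 ended at 4247 steps and that of succinate replicate 2 at 49. A missing peak thus does not show that signal was absent.

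**Figure D5:**
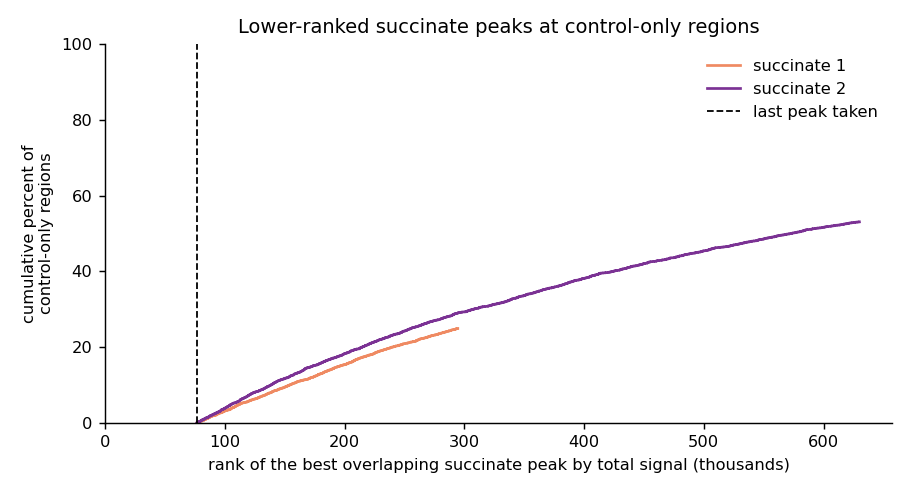
Lines give the cumulative percent of the 4806 control-only regions that are overlapped by a peak of succinate replicate 1 (orange) or 2 (purple), against the rank of the best overlapping peak by total signal in the full list; the dashed line marks the last peak taken, 76702. The lines start at the dashed line by the rule and end at 24.9% and 53.1%.

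At the edge of the rule, inside and outside were close. The nearest regions kept had a best succinate peak at rank 76776 (chromosome 11, 134828011 to 134828640), 76818 (chromosome 2, 187896747 to 187898662) and 76850 (chromosome 2, 219051426 to 219053242). The last of these lay 1.18 kb from IHH, the gene of the ligand Indian hedgehog, and all its 1817 bp were under H3K27me3 in each of the 4 libraries. The nearest regions left out had both control peaks and a succinate peak at rank 76681 (chromosome 4, 144774966 to 144776189), 76600 (chromosome 6, 48602403 to 48603776) and 76512 (chromosome 2, 220058711 to 220060506).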

How the data were processed

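The authors deposited 1 peak list per library. Per the submitters' processing notes the peaks come from SEACR and the build is hg38, and the file names give its stringent mode. The aligner, the scaling, the control track and the threshold are not given in the sources used here. Each deposited list gives a peak's coordinates, its total signal and its highest signal, scaled differently from library to library, so ranks within a library were used.

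From these lists the 76702 strongest peaks per Ksu library were merged where they overlapped by 1 bp or more, and a library was present in a region if a peak overlapped it by 1 bp. Merging on overlap alone, touching peaks stay apart. Gene bodies and promoter windows came from RefSeq tables of GRCh38.p14, matched by position. No sequence outside these tables was read. Coordinates count from 1. H3K27me3 cover is the share of bases under the peaks of a library, compared on the log2 scale by exact permutation tests over libraries. Code ran in Python 3.11.15 with numpy 2.4.6, pandas 2.3.3, scipy 1.17.1 and matplotlib 3.10.9, and was tested on simulated data.

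Named regions follow a rule: the 10 with the highest lower percentile in the controls, the 5 widest, the 10 genes and 5 windows with the most regions, up to 10 at promoters, genes of the lists that hold a region (some are not reported here), and 3 on either side of the threshold. The regions and lists were chosen with earlier results of these data known. Alternatives cover the number, ranking, width and merging of peaks, the overlap that counts, and each library left out.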

Additional observations from a re-analysis of the deposited data

Results flagged for a closer look

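Ksu regions only in control were also found on sequences outside the 24 chromosomes, which entered no comparison. With equal numbers of peaks taken from the full lists, 5 of 274 such union regions were present in both control libraries and in neither succinate library, a count above the 3 that a count of 0 allows, which is why it is listed. The values are those that chose the regions, so this is a description. On the chromosomes the share was 1.80%, so a count of 0 was not to be expected here. Passing that limit therefore does not set these sequences apart. On the same sequences 10 regions were present only in succinate, 30 only in the libraries of replicate 1 and 4 only in those of replicate 2. Control replicate 1 shared 4 with succinate replicate 2, and control replicate 2 shared 2 with succinate replicate 1. The count for the controls thus lies inside the range of the other patterns.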

How the results depend on the processing

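Over 7 results, 109 alternative values were computed, of which 82 stayed on the same side of 0 (H3K27me3), within 1.5 times (the count) or within the 95% interval of the value reported (shares and width). Of the others, 26 moved and 1 changed direction. The 95% intervals were computed over regions, which are not replicates. They do not measure the spread between libraries and serve only to sort the values. The number of control-only regions became 1842 with 50% of the peaks and 2609 with presence at 50% cover, and ranged from 5578 to 199266 with each Ksu library left out. The gene-body share became 35.5% when peaks were ranked by width and ranged from 34.3% to 39% with a library left out. The share with a peak in a full succinate list became 73.1% with 50% of the peaks, 66.1% ranked by width, 37.3% with peaks of at least 500 bp, 67.3% merged within 1 kb and 62.3% without chromosome 2, and ranged from 17.9% to 53.3% with a library left out. Median width became 1586 bp with 50% of the peaks, 1263 bp ranked by highest signal, 1457 bp ranked by width, 1422 bp with peaks of at least 500 bp, 1884 bp merged within 1 kb, 1228 bp with presence at 50% cover and 1162 bp with all peaks, and ranged from 459 to 1388 bp with a library left out. Settings that change list length or width move these values by construction; beyond that the cause was not tested.

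The H3K27me3 log2 ratio to all union regions stayed below 0 in all 19 alternatives (-1.33 to -0.526), as did that to regions only in succinate (-2.27 to -0.962); with a library left out they ranged from -1.09 to -0.526 and from -2.00 to -0.962. The difference between treatments ranged from -0.859 (without H3K27me3 control replicate 2) to 0.136 (without H3K27me3 control replicate 1), the only change of direction. With the replicate number as a block it was -0.361, equal to the unblocked value by construction, from -0.62 in replicate 1 and -0.10 in replicate 2 (exact permutation p = 0.5, the smallest possible). The labels do not say that the numbers pair the samples. The regions themselves depended on the ranking: of 4414 regions found when peaks were ranked by highest signal, 2036 overlapped a control-only region, and of 6579 found with all peaks, 1729 did. The removal of chromosome 2 and the merging of touching peaks were chosen after seeing the data. With 2 libraries per group the permutation tests could not give a p under 0.05, and depth is unknown.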

Other observations

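The places of highest signal in the 2 libraries that share a region lay at distances in control-only regions that fell within the range of the other patterns. They were within 200 bp of each other in 1295 of the 4806 control-only regions (26.9%), beside 31.6% of the succinate-only regions, 28.9% and 32.2% of the regions only in replicates 1 and 2, and 26.7% and 30.9% of the regions shared by a control with the succinate library of the other number. The share of the width covered by both peaks, a median of 33.7%, was the lowest of the 6 patterns, which had 36.9% to 40.9% otherwise.

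Olfactory receptor genes, short genes that lie in clusters, held control-only regions near the share over all protein-coding genes, 1.46%. Of 392 such genes, 4 held a control-only region, and control-only and succinate-only regions each numbered 4, which is 1.44% of the 277 union regions in these genes.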
